A study of Mus musculus with 18 samples.

Results

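Polypoid dysplasia was compared with non-dysplastic colonic epithelium in mice that had eaten chow without folic acid. The members were chosen by their labels alone: 4 libraries of laser-microdissected polypoid tumor cells (0P) and 4 libraries of microdissected non-neoplastic epithelium from colitic mice (0ND), 8 of the 18 libraries of the series. All 8 came from Swiss Webster mice, described as female in the study's methods, that received azoxymethane (AOM), a colon carcinogen, at 7 weeks of age and 4 cycles of dextran sulfate sodium (DSS) in the drinking water from 9 weeks, each of 7 days at 2% and 14 days of plain water. The mice ate a basal chow with 2 mg/kg folic acid (FA) until 11 weeks of age and then chow with 0 mg/kg for 16 weeks, and tissue was taken at 27 weeks. The 0ND tissue had therefore met the same carcinogen, colitis and diet as the dysplasias, and it is no untreated control. The other 10 libraries held the same 2 tissues from mice fed 8 mg/kg FA (8ND and 8P, 5 libraries each). The labels number the libraries within a group without saying which mouse each came from, so p-values measure the spread between these libraries, which may be technical. Below, the 0P libraries are called dysplasias and the 0ND libraries epithelia for short. Whether each is a separate lesion or mouse is not given by the labels.

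In the AOM/DSS model, azoxymethane alkylates DNA in the colonic epithelium and repeated DSS injures and inflames it, and polypoid dysplasias arise in which the Wnt pathway is often active. Wnt ligands bound by Frizzled receptors protect beta-catenin from destruction, and beta-catenin then switches on genes together with TCF and LEF factors at DNA sites that hold CTTTGAT or its reverse complement. Many of those genes encode inhibitors of the pathway itself, so their transcripts are a common readout of its activity. In the normal colon the pathway is strongest in stem cells at the crypt base. Above them, absorptive colonocytes, mucus-making goblet cells and hormone-making enteroendocrine cells mature.

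Expression is given as CPM, counts scaled to a common library size with factors from trimmed means of M values (TMM), with group means ± SD over 4 libraries. Sums over marker genes and over mitochondrially encoded genes are CPM of the total counts on genes, without TMM factors. Fold changes of 0P over 0ND are on the log2 scale ± SE. Adjusted p-values are from edgeR's quasi-likelihood test with Benjamini-Hochberg adjustment over 20787 tested genes. Counts on genes summed to between 6330535 and 17048524 per library, and the ranges of the 2 groups overlapped. Between 22% and 39% of the counted reads lay on no gene, and a further 41.0% to 61.4% were not uniquely placed.

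Dysplasia and epithelium differed at 6562 genes, 31.6% of those tested, of which 3304 (15.9%) were higher in 0P and 3258 (15.7%) lower. A change of at least 2-fold was found for 1537 of the higher genes (7.39% of those tested) and 1763 of the lower genes (8.48%). The large changes were mostly gains: 685 genes were at least 4-fold higher (3.3%) against 513 at least 4-fold lower (2.47%), and 219 were at least 16-fold higher (1.05%) against 15 at least 16-fold lower (0.0722%). Over all tested genes the median log2 fold change was -0.03. In 5627 of the called genes (85.8%) the lowest library of one tissue exceeded the highest of the other, which held for 32.3% of all tested genes. Among the 8 genes that gained most CPM, Spock2, a secreted matrix proteoglycan, had the largest fold change. It read 40.3, 16.6, 34.9 and 11.2 CPM in 0ND and 1249, 765, 2131 and 1956 CPM in 0P (58.6-fold, log2 fold change 5.87 ± 0.97, adjusted p = 0.000286). The 0P libraries spanned a wide range for Spock2 and none came near 0ND.

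**Figure D1:**
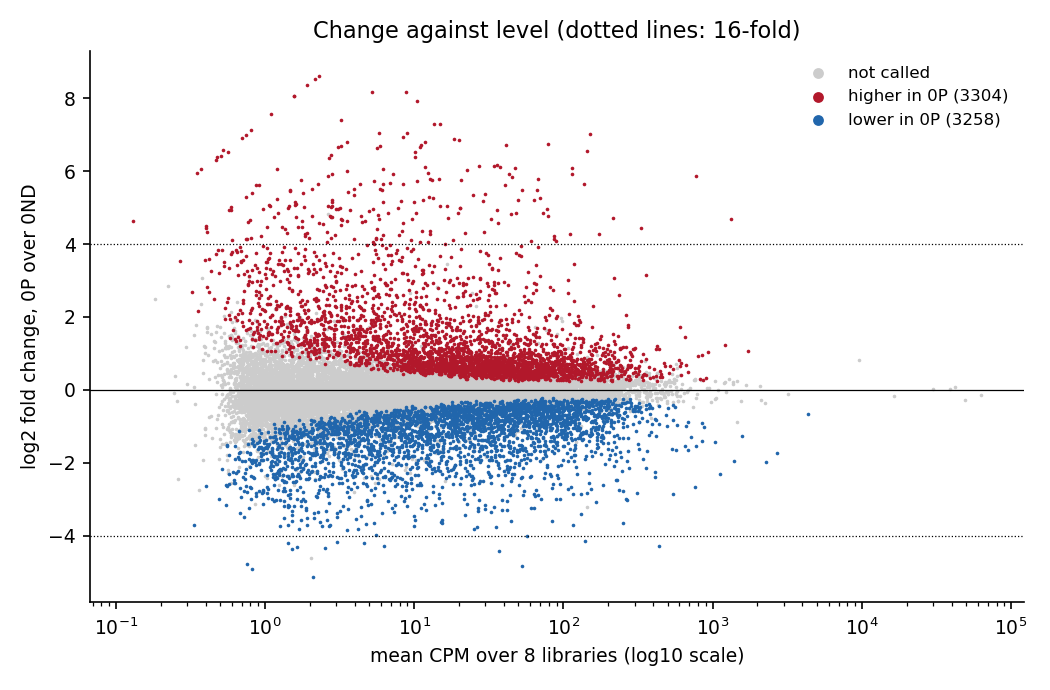
Each point is 1 of the 20787 tested genes, with its mean level over the 8 libraries on the x axis (CPM, log10 scale) and the log2 fold change of 0P over 0ND on the y axis. Called genes are coloured (3304 higher, 3258 lower), and the 219 genes at least 16-fold higher lie mostly among genes of low mean level, while 15 lie as far below 0.

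The 4 dysplasias were not equally far from the epithelium. The first principal component of log2 CPM over the 8 libraries held 71.1% of the variance and placed the 0ND libraries between -58.6 and -46.4, 0P 1 at 27.3 and the other 0P libraries at 51.0, 58.8 and 66.0. Of the 513 genes at least 4-fold lower, 0P 1 was the 0P library with the highest level in 355 (69.2%), against 82, 56 and 20 for 0P 2, 0P 3 and 0P 4. Of the 685 genes at least 4-fold higher, 0P 1 had the lowest level of the 0P libraries in 356 (52%), against 155, 124 and 50. No label sets 0P 1 apart, and whether its cells or the tissue dissected differed was not tested.

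Inhibitors that Wnt signalling itself induces were among the clearest gains. Of 23 tested feedback inhibitors, 13 were higher in 0P, 3 were lower and 7 were not called, with a median log2 fold change of 0.79 against -0.03 over all genes. Axin2, a scaffold of the beta-catenin destruction complex (chr11:108920349-108950783 in mm10, plus strand), read 36.1, 58.4, 52.2 and 42.4 CPM in 0ND and 289.9, 359, 389 and 533 CPM in 0P (8.33-fold, log2 fold change 3.06 ± 0.24, adjusted p = 4.7e-07). All 4 dysplasias lay far above all 4 epithelia, and the lowest 0P library was still several times the highest 0ND library. Rnf43, a ubiquitin ligase that removes Frizzled receptors, read 62.7, 63.1, 84.1 and 59.7 CPM in 0ND and 342, 374, 362 and 550.3 CPM in 0P (log2 fold change 2.59 ± 0.22, adjusted p = 4.94e-07). Its partner Znrf3 moved from 36.5 ± 4.94 to 142 ± 35.9 CPM, log2 fold change 1.96 ± 0.20.

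Notum, a secreted enzyme that strips the lipid from Wnt ligands, was close to absent from the epithelium. It read 2.68, 0.529, 1.42 and 0.108 CPM in 0ND and 75.1, 69.1, 109 and 119 CPM in 0P (log2 fold change 6.08 ± 0.89, adjusted p = 0.000101), with no overlap. Nkd1, an inhibitor of Dishevelled, read 19, 19.6, 16 and 9.2 CPM in 0ND and 276, 350.2, 466 and 578 CPM in 0P (log2 fold change 4.71 ± 0.63, adjusted p = 4.7e-05), and 0P 1 was the lowest of the 4 dysplasias. Among secreted Wnt antagonists, Wif1 read 7.9, 2.82, 7.81 and 2.06 CPM in 0ND and 113, 212, 400.4 and 349.9 CPM in 0P (log2 fold change 5.65 ± 0.77, adjusted p = 5.66e-05), and again 0P 1 stood lowest of the dysplasias and well above the epithelia. Dkk2 changed from 4.95 ± 0.756 to 142 ± 39.5 CPM, log2 fold change 4.84 ± 0.49. Apcdd1, a membrane inhibitor, moved from 7.14 ± 1.12 to 93.5 ± 45.1 CPM, log2 fold change 3.70 ± 0.40.

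Among Wnt targets other than inhibitors, 29 of 45 tested genes rose and 8 fell (median 0.99). The targets that rose included DNA-binding partners of beta-catenin, Lef1 (14 ± 3.81 to 99.1 ± 26.8 CPM, log2 fold change 2.82 ± 0.29) and Tcf7 (11.8 ± 3.81 to 52.9 ± 5.38 CPM, log2 fold change 2.14 ± 0.25). Prox1, a homeobox factor, read 34.2, 24.3, 34.5 and 24 CPM in 0ND and 431, 588, 778 and 734 CPM in 0P (21.5-fold, log2 fold change 4.43 ± 0.50, adjusted p = 9.23e-06). Every dysplasia held at least 10 times the Prox1 of any epithelium. Sox4, an SRY-box factor, moved from 72.5 ± 20.6 to 641 ± 151 CPM, log2 fold change 3.14 ± 0.35. Mmp7, the matrix protease matrilysin, read 2.8, 0.353, 1.42 and 0.217 CPM in 0ND and 136, 76.9, 47.1 and 80.6 CPM in 0P (log2 fold change 5.91 ± 0.83, adjusted p = 7.12e-05).

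Sp5, a zinc-finger factor induced directly by Wnt, had 2 counts over the 4 epithelia and 830 over the dysplasias, a ratio of 340.4 after scaling to depth (exact 95% interval 93.9 to 2816, counting error only). Its values were 11.1, 18.5, 22.9 and 18.4 CPM in 0P, lowest in 0P 1. Its promoter held a TCF/LEF motif beginning 104 bases before the start of transcription. That sequence is shown because Sp5 was among the strongest gains, and promoters of antimicrobial genes described further on carry the same letters. In the 150 bases upstream of each start, from RefSeq promoters on GRCm38, the build also called mm10, capitals mark CTTTGAT or its reverse complement ATCAAAG:
Sp5 promoter, chr2:70474773-70474922, plus strand: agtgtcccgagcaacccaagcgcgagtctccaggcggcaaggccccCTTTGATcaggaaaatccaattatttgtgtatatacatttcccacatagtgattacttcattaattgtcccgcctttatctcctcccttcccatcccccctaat
Defa35 promoter, chr8:21064888-21065037, plus strand: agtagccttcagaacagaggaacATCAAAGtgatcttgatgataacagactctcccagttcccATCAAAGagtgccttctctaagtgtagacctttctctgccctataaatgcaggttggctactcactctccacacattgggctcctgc
Defa22 promoter, chr8:21162127-21162276, plus strand: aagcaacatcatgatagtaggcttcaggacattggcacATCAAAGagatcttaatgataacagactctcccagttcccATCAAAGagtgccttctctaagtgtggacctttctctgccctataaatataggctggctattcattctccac

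The same letters, read on both strands in the 300 bases around the start, occurred in 3.44% of the 12747 tested genes with a promoter sequence, in 3.91% of the 2354 higher genes among them and in 2.72% of the 2094 lower genes. Sp5 held the motif in that window, and results for the other Wnt genes called are not reported here one by one. A motif match is a description of the sequence and no evidence of binding.

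The ligands, receptors and core machinery of the pathway changed less uniformly than its targets. Of 54 tested, 15 rose and 10 fell (median 0.24). Wnt6 (0.637 ± 0.375 to 20.1 ± 5.23 CPM, log2 fold change 4.86 ± 0.56) and Wnt10a (0.243 ± 0.226 to 11.9 ± 5.29 CPM, log2 fold change 5.47 ± 0.68), both epithelial Wnt ligands, and the receptor Fzd10 (0.516 ± 0.256 to 9.12 ± 3.1 CPM, log2 fold change 3.99 ± 0.51) rose from low levels. Another receptor, Fzd5, fell from 110.4 ± 17.5 to 39.3 ± 13.7 CPM, log2 fold change -1.49 ± 0.20, as did the stromal Wnt amplifier Rspo3 (13.5 ± 3.29 to 2.48 ± 1.64 CPM, log2 fold change -2.41 ± 0.46) and the ligand Wnt2b (32.4 ± 4.04 to 8.38 ± 4.62 CPM, log2 fold change -1.94 ± 0.37). Beta-catenin's own transcript, Ctnnb1, rose from 461 ± 43.5 to 771 ± 96.1 CPM, log2 fold change 0.74 ± 0.14.

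Crypt stem cell genes rose more often than they fell, 22 of 31 tested against 4, with a median of 1.33. The list overlaps those above: it holds the inhibitors Axin2, Rnf43 and Znrf3 and Wnt targets such as Tnfrsf19, so it is no separate result. Aqp4, given below, is also in the absorptive list. Lgr5, the R-spondin receptor that marks crypt stem cells, read 6.05, 4.41, 10.9 and 4.98 CPM in 0ND and 129.5, 84.6, 74.2 and 70.2 CPM in 0P (13.5-fold, log2 fold change 3.76 ± 0.60, adjusted p = 0.000212). Here 0P 1 was the highest of the dysplasias, whereas it was the lowest for Axin2, Nkd1, Wif1 and Sp5. Smoc2, a matricellular stem cell product, moved from 14.5 ± 4.77 to 125 ± 16.5 CPM, log2 fold change 3.12 ± 0.46, and the RNA-binding proteins Mex3a and Msi1 from 6.78 ± 1.09 to 115 ± 40.6 CPM, log2 fold change 4.09 ± 0.43 and from 2.06 ± 0.54 to 23.1 ± 7.42 CPM, log2 fold change 3.43 ± 0.44. The 4 members that fell included Aqp4, a water channel of the crypt, which read 531, 553, 374 and 414 CPM in 0ND and 137, 42.9, 24.6 and 29.3 CPM in 0P (log2 fold change -2.997 ± 0.51, adjusted p = 0.000318). In Aqp4 the dysplasias did not overlap the epithelia, and 0P 1 kept the most.

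Genes of mature absorptive colonocytes were the largest loss. Of 75 tested, 54 fell and 4 rose, with a median log2 fold change of -1.82. Slc26a3, the apical chloride-bicarbonate exchanger, read 556, 449, 1279 and 1028 CPM in 0ND and 86.4, 39.1, 34.8 and 11.4 CPM in 0P (19.3-fold lower, log2 fold change -4.27 ± 0.60, adjusted p = 6.98e-05). The lowest epithelium lay several-fold above the highest dysplasia, which was 0P 1. Slc26a2, a sulfate transporter needed for mucin sulfation, changed from 956 ± 275 to 132 ± 36.5 CPM, log2 fold change -2.86 ± 0.24, and Slc5a8, which takes up butyrate and other short-chain acids, from 297 ± 73.3 to 35.3 ± 18.4 CPM, log2 fold change -3.07 ± 0.35. Aqp8, a colonocyte water channel, read 58.6, 55.7, 73.2 and 97.8 CPM in 0ND and 10.4, 1.08, 1.65 and 0.249 CPM in 0P (log2 fold change -4.43 ± 0.71, adjusted p = 0.000214). Carbonic anhydrase 4, Car4, read 178, 257, 380.0 and 245 CPM in 0ND and 38.6, 10.9, 6.72 and 3.3 CPM in 0P (log2 fold change -4.15 ± 0.70, adjusted p = 0.000313). For Aqp8 and Car4 0P 1 kept the most transcript by a wide margin.

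The exceptions ran against the group. Slc9a3, the apical sodium-hydrogen exchanger, rose from 122 ± 12.2 to 419.7 ± 76.9 CPM, log2 fold change 1.79 ± 0.22, and the other members that rose were the galectin Lgals2 (0.151 ± 0.133 to 3.54 ± 1.27 CPM, log2 fold change 4.29 ± 0.68), the raft protein Mal (4.11 ± 3.37 to 24.5 ± 9.72 CPM, log2 fold change 2.50 ± 0.68) and the scaffold protein Pdzk1 (0.566 ± 0.172 to 2.38 ± 1.84 CPM, log2 fold change 2.16 ± 0.71). The call of Pdzk1 was lost without 0ND 1, 0ND 3 or 0P 4 (adjusted p 0.0527 to 0.139). Btnl1, a butyrophilin-like protein by which enterocytes hold intraepithelial T cells, fell from 12 ± 1.84 to 0.6 ± 0.894 CPM, log2 fold change -4.29 ± 0.83. The other 17 absorptive genes were not called.

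The loss reached drug- and steroid-metabolising enzymes that colonocytes express. In the list of xenobiotic and retinoid enzymes 45 of 80 fell and 11 rose (median -1.02). Sult1a1, a phenol sulfotransferase, read 91.7, 107, 80.04 and 151 CPM in 0ND and 15.4, 5.31, 2.2 and 3.55 CPM in 0P (16.1-fold lower, log2 fold change -4.01 ± 0.48, adjusted p = 1.32e-05). Cyp2c55, a cytochrome P450, read 235, 28.2, 61.9 and 81.1 CPM in 0ND and 9.86, 1.85, 1.65 and 0.933 CPM in 0P (log2 fold change -4.84 ± 1.18, adjusted p = 0.00552), and the 0ND libraries themselves differed by several-fold. Cyp2c68 read 28.4, 32.6, 38.2 and 54.6 CPM in 0ND and 8.1, 4.69, 3.16 and 3.3 CPM in 0P (log2 fold change -2.99 ± 0.45, adjusted p = 8.28e-05). Cyp2c65 read 9.81, 2.82, 2.49 and 0.866 CPM in 0ND and 1.06, 0.77, 0.549 and 0.124 CPM in 0P (log2 fold change -2.74 ± 0.92, adjusted p = 0.031). In Cyp2c65 the highest dysplasia exceeded the lowest epithelium, and the call was lost without 0ND 1, 0P 2, 0P 3 or 0P 4 (adjusted p 0.0604 to 0.197). Members of the Cyp2c family are close in sequence, so reads could be divided among them.

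Promoters of some of these genes carried CAAAGTCCA, the letters to which the colonocyte factor HNF4 binds. The following are shown because all the genes named fell, with CAAAGTCCA or its reverse complement in capitals, within 150 bases upstream of the start (RefSeq, GRCm38):
Cyp2c65 promoter, chr19:39060856-39061005, plus strand: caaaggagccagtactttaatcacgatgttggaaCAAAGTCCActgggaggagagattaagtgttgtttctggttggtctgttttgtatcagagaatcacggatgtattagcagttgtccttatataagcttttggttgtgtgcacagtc
Cyp2c68 promoter, chr19:39741102-39741251, minus strand: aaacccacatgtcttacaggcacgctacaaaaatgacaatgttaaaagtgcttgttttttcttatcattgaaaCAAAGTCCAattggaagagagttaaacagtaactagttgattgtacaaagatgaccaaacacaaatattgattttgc
Btnl2 promoter, chr17:34354672-34354821, plus strand: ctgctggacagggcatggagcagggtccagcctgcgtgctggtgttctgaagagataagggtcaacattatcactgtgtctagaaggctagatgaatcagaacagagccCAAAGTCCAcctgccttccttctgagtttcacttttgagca

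These letters were in 0.541% of all 12747 promoters, in 1.15% of those of the lower genes and in 0.467% of those of the higher genes. Among genes changed at least 2-fold they were in 1.55% of promoters of the lower genes (16 promoters) and 0.725% of the higher (7 promoters). Btnl2, a butyrophilin-like gene, changed from 2.21 ± 1.3 to 0.438 ± 0.121 CPM, log2 fold change -2.34 ± 0.64, and Hnf4a itself from 419 ± 88.6 to 193 ± 61.7 CPM, log2 fold change -1.12 ± 0.21. Without 0ND 1 Btnl2 was not called (adjusted p = 0.0529). Motifs of CDX, AP-1 and the E-box were searched as well. CDX letters (TTTATAG) were in 3.44% of all promoters, and in 6.21% of higher and 4.95% of lower genes changed at least 2-fold. In the same order, AP-1 letters (TGACTCA) were in 5.15%, 7.14% and 7.67%, and E-box letters (CACGTG) in 10.8%, 10% and 10.4%. No test was run on these shares.

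Goblet cell products fell at 32 of 51 tested genes and rose at 4 (median -1.49). Muc2, the gel-forming mucin of the colon (chr7:141690340-141754693 in mm10, plus strand), read 5899, 3725, 3566 and 3511 CPM in 0ND and 1821, 851, 868 and 1499 CPM in 0P (3.31-fold lower, log2 fold change -1.73 ± 0.47, adjusted p = 0.00908). The groups did not overlap, and 0P 1 and 0P 4 kept more Muc2 than the other two. Clca1, a secreted mucus protease, read 983, 1809.7, 2428 and 2306 CPM in 0ND and 550.1, 182, 654 and 128 CPM in 0P (log2 fold change -2.31 ± 0.76, adjusted p = 0.029), and 0P 4 held the least. That call was lost without 0ND 3, 0ND 4, 0P 2 or 0P 4 (adjusted p 0.0606 to 0.0863). Zg16, a lectin that binds bacteria, read 278, 539, 313 and 520.4 CPM in 0ND and 111, 56.7, 34.2 and 41.6 CPM in 0P (log2 fold change -2.76 ± 0.53, adjusted p = 0.000856). Klf4, a factor of terminal differentiation, read 302, 332, 523 and 466 CPM in 0ND and 102, 93.8, 84.4 and 68.5 CPM in 0P (log2 fold change -2.22 ± 0.20, adjusted p = 7.11e-07), with a small spread among the dysplasias.

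Atoh1, which commits cells to the secretory lineage, changed from 51.8 ± 8.0 to 10.7 ± 6.52 CPM, log2 fold change -2.26 ± 0.42. Muc3, a membrane-bound mucin, moved from 1328 ± 365 to 208 ± 96.4 CPM, log2 fold change -2.68 ± 0.40. Not all goblet products shared this. Muc6, a mucin of the stomach and pyloric glands, was among the genes that rose and read 2.61, 0.705, 1.66 and 0.65 CPM in 0ND and 54.7, 82, 141 and 79.7 CPM in 0P (log2 fold change 5.83 ± 0.88, adjusted p = 0.000135). Spink4, a protease inhibitor of goblet cells, read 53.5, 72.1, 61.7 and 55.8 CPM in 0ND and 62, 30.4, 37 and 110.1 CPM in 0P (log2 fold change -0.01 ± 0.50, adjusted p = 0.988) and was not called, with the 0P libraries on both sides of 0ND. Pigr, the receptor that carries IgA across the epithelium, read 2659, 3554, 4489.8 and 3770.1 CPM in 0ND and 1420.4, 635, 578 and 1066 CPM in 0P (log2 fold change -1.97 ± 0.30, adjusted p = 8.96e-05).

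Enteroendocrine genes fell at 24 of 42 and rose at 2 (median -1.49). The proglucagon gene Gcg read 17.7, 23.6, 15.7 and 23.3 CPM in 0ND and 5.37, 0.923, 1.23 and 0.995 CPM in 0P (log2 fold change -3.23 ± 0.53, adjusted p = 0.000169), Insl5, an L-cell peptide hormone, moved from 18.6 ± 8.09 to 1.37 ± 0.803 CPM, log2 fold change -3.74 ± 0.59, and the granule protein Chga from 31.4 ± 14.8 to 6.04 ± 0.753 CPM, log2 fold change -2.36 ± 0.48. The gene that ran most clearly against them was Slc18a1, a vesicular monoamine transporter (4.59 ± 0.937 to 35.3 ± 16.9 CPM, log2 fold change 2.93 ± 0.46). Tuft cell genes showed no common direction, with 4 of 29 higher (13.8%), 7 lower (24.1%) and a median of -0.12. Avil, an actin-bundling protein of tuft cells, read 2.87, 2.82, 3.08 and 2.27 CPM in 0ND and 44.1, 69.5, 44.6 and 65.1 CPM in 0P (log2 fold change 4.33 ± 0.39, adjusted p = 1.03e-06), while the tuft cell channel Trpm5 changed from 3.14 ± 1.79 to 0.878 ± 0.425 CPM, log2 fold change -1.87 ± 0.45 and the marker Dclk1 (29.5 ± 6.33 to 19.5 ± 4.95 CPM, log2 fold change -0.59 ± 0.27, adjusted p = 0.109) was not called. In bulk samples such as these, fewer cells of a type and less RNA per cell cannot be told apart.

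**Figure D2:**
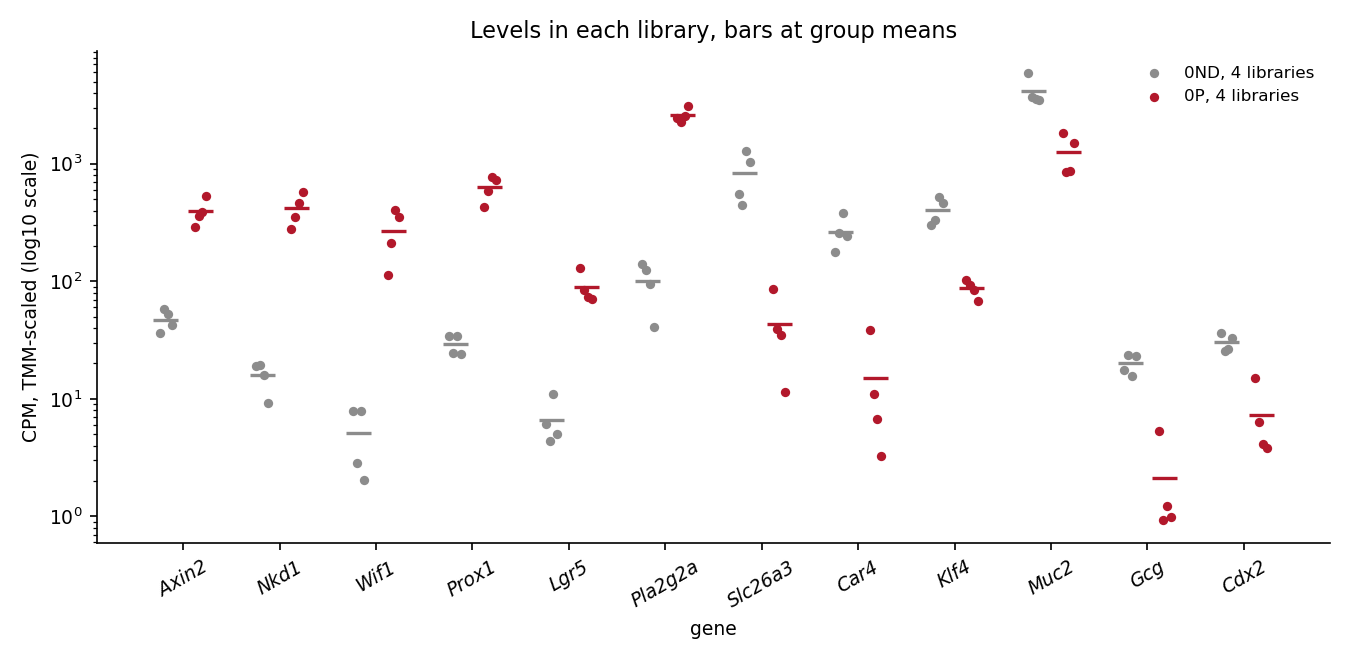
Levels in each of the 8 libraries (CPM, log10 y axis) are drawn for 12 genes, with 0ND libraries in grey and 0P libraries in red and a short bar at each group mean. The Wnt and stem cell genes Axin2, Nkd1, Prox1, Wif1 and Lgr5 and the phospholipase Pla2g2a are higher in all 4 dysplasias, and Slc26a3, Car4, Klf4, Muc2, Gcg and Cdx2 are lower in all 4.

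Transcription factors that set intestinal identity were mixed: of 58 tested, 12 rose, 21 fell and 25 were not called (median -0.30). Factors of the hindgut and colonocyte were among those that fell. Cdx2, the master homeobox factor of the intestine, read 36.4, 25.4, 26.8 and 32.7 CPM in 0ND and 15, 6.31, 4.12 and 3.79 CPM in 0P (log2 fold change -2.05 ± 0.43, adjusted p = 0.0015), with 0P 1 between the epithelia and the other dysplasias. Cdx1 changed from 89.1 ± 21.4 to 24.5 ± 7.19 CPM, log2 fold change -1.86 ± 0.24. The vitamin D receptor Vdr (231 ± 35.1 to 32.1 ± 22 CPM, log2 fold change -2.85 ± 0.37), the nuclear receptor Nr5a2 (70.2 ± 12.5 to 7.18 ± 5.3 CPM, log2 fold change -3.29 ± 0.43) and the transcription factor Tfcp2l1 (542 ± 111 to 76.2 ± 33.5 CPM, log2 fold change -2.83 ± 0.46) fell further.

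Factors used elsewhere in the gut or in the embryo were among those that rose. Onecut2, a homeobox factor of liver and small intestine, read 5.1, 1.76, 3.67 and 0.866 CPM in 0ND and 376, 362, 167 and 244 CPM in 0P (94-fold, log2 fold change 6.55 ± 0.81, adjusted p = 2.49e-05). The groups were far apart, and 0P 3 held the least of the dysplasias. Gata5 moved from 0.401 ± 0.187 to 15.9 ± 4.36 CPM, log2 fold change 5.18 ± 0.66, the T-box repressor Tbx3 from 19.4 ± 3.18 to 215 ± 65.4 CPM, log2 fold change 3.47 ± 0.38 and Sox21 from 7.1 ± 1.44 to 54.4 ± 8.78 CPM, log2 fold change 2.92 ± 0.30. Sox2, the foregut factor, was higher on average, but its libraries read 0.255, 0.529, 0.118 and 0 CPM in 0ND and 3.17, 0.539, 0.823 and 10.5 CPM in 0P (log2 fold change 4.15 ± 1.12, adjusted p = 0.00901), so the mean rests on 0P 4 and 0P 1. Of 27 Hox genes 17 were not called, 7 were higher (25.9%) and 3 lower (11.1%), with a median of 0.02. Of all tested genes 15.9% were higher and 15.7% lower. Hoxa13, the most posterior of its cluster, fell from 45.9 ± 5.11 to 19.3 ± 10.1 CPM, log2 fold change -1.26 ± 0.30. Hoxd12 read 0, 1.59, 0.8289 and 1.19 CPM in 0ND and 0, 0.693, 27.2 and 23.5 CPM in 0P (log2 fold change 3.97 ± 1.27, adjusted p = 0.0248): it was high in 0P 3 and 0P 4 and within the range of the epithelia in 0P 1 and 0P 2. Its call was lost without 0ND 1, 0ND 3, 0ND 4, 0P 3 or 0P 4 (adjusted p 0.0522 to 0.0712), and that of Sox2 without 0P 4 (adjusted p = 0.056).

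The list of Paneth-like and antimicrobial genes gave the largest median of the lists examined, 3.95, with 16 of 29 higher and 3 lower. Paneth cells are antimicrobial secretory cells that the normal mouse colon lacks, but the list also holds defence genes of other cells, such as Pigr and Lcn2. The list's summed level, which includes Pigr, overlapped between groups (5762 to 6712 CPM in 0ND, 4417 to 7602 CPM in 0P, without TMM factors). Pla2g2a, a secreted phospholipase that kills bacteria (chr4:138831857-138835186 in mm10, plus strand, annotated by GENCODE as a polymorphic pseudogene because inbred strains differ in it), read 141, 125, 95.3 and 40.5 CPM in 0ND and 2431, 2258, 2536 and 3082 CPM in 0P (25.7-fold, log2 fold change 4.68 ± 0.47, adjusted p = 3.5e-06). The 4 dysplasias were close to each other and far above the epithelia. Lcn2, the iron-scavenging lipocalin, read 0.637, 0.705, 0.355 and 0.325 CPM in 0ND and 7.4, 49, 34.8 and 24.1 CPM in 0P (log2 fold change 5.80 ± 0.83, adjusted p = 6.87e-05). Wfdc18, a secreted protease inhibitor, moved from 2.29 ± 0.65 to 103 ± 78.4 CPM, log2 fold change 5.49 ± 0.88. Reg3b (3.15 ± 4.65 to 25.4 ± 41.9 CPM, log2 fold change 2.81 ± 1.58, adjusted p = 0.202) and Reg3g (2.39 ± 1.83 to 16.3 ± 18.7 CPM, log2 fold change 2.67 ± 1.27, adjusted p = 0.128), both bactericidal lectins, were not called, although DESeq2 called Reg3g (adjusted p = 0.0356).

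Alpha-defensins and lysozyme were high in some 0P libraries and not in others. Defa24 read 3.25, 0.176, 1.18 and 0.108 CPM in 0ND and 133, 2.85, 24.8 and 466 CPM in 0P (log2 fold change 6.76 ± 1.78, adjusted p = 0.0089). It was abundant in 0P 4 and 0P 1, lower in 0P 3, and 0P 2 lay below the highest epithelium. Defa30 read 1.78, 0, 0.592 and 0 CPM in 0ND and 76.7, 1.62, 19.8 and 229.6 CPM in 0P (log2 fold change 6.72 ± 1.66, adjusted p = 0.00587) and Defa35, whose promoter is shown above, 1.02, 0.176, 0.355 and 0 CPM in 0ND and 23.5, 0.154, 5.9 and 74.3 CPM in 0P (log2 fold change 5.76 ± 1.51, adjusted p = 0.00816), with the same order of dysplasias. Defa22, the other gene whose promoter is shown above, read 0.765, 0, 0 and 0 CPM in 0ND and 4.4, 0, 1.65 and 21.6 CPM in 0P (log2 fold change 4.64 ± 1.45, adjusted p = 0.0217), and its call was lost without 0ND 2, 0ND 3, 0ND 4 or 0P 4 (adjusted p 0.0517 to 0.145) and with no filter on low counts (0.0652). Lyz1, Paneth cell lysozyme, read 23.7, 1.76, 6.16 and 0.758 CPM in 0ND and 360.0, 23.6, 33.9 and 241 CPM in 0P (log2 fold change 4.23 ± 1.14, adjusted p = 0.00991), again highest in 0P 1 and 0P 4. Defensin genes are near-identical copies, so counts of single members are uncertain, and with limma-voom the adjusted p was 0.164 for Defa24, 0.184 for Defa30, 0.26 for Defa35 and 0.229 for Defa22. The 0ND library with the most of each of these transcripts was 0ND 1.

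Other transcripts were carried by 0P 3. Ereg, the growth factor epiregulin, read 8.03, 5.29, 10.9 and 9.31 CPM in 0ND and 10.2, 21.9, 183 and 18.9 CPM in 0P (log2 fold change 2.77 ± 0.86, adjusted p = 0.0214). Ptgs2, the inducible cyclooxygenase, read 6.18, 7.23, 7.46 and 7.9 CPM in 0ND and 13.2, 15.8, 151 and 12.5 CPM in 0P (log2 fold change 2.73 ± 0.82, adjusted p = 0.0184), and Cemip, a hyaluronan-degrading protein, read 12.6, 68.2, 241 and 22.8 CPM in 0P against a mean of 2.93 ± 0.628 CPM in 0ND (log2 fold change 4.83 ± 0.86, adjusted p = 0.000497). In each of these 0P 3 held several times the level of the other dysplasias. All 4 dysplasias still exceeded the 4 epithelia for Ptgs2 and Cemip, whereas for Ereg 0P 1 lay within the range of 0ND. Without 0P 3 the log2 fold change of Ereg was 1.04 (adjusted p = 0.203) and that of Ptgs2 0.97 (adjusted p = 0.175). The call of Ereg was also lost without 0ND 1, 0ND 2 or 0ND 4 (adjusted p 0.0502 to 0.0576) and that of Ptgs2 without 0ND 1 (adjusted p = 0.0524). Hdc, histidine decarboxylase of mast cells and other myeloid cells, was carried by 0P 4 and read 2.99, 7.23, 4.39 and 45.7 CPM in 0P (log2 fold change 3.22 ± 0.80, adjusted p = 0.00537).

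**Figure D3:**
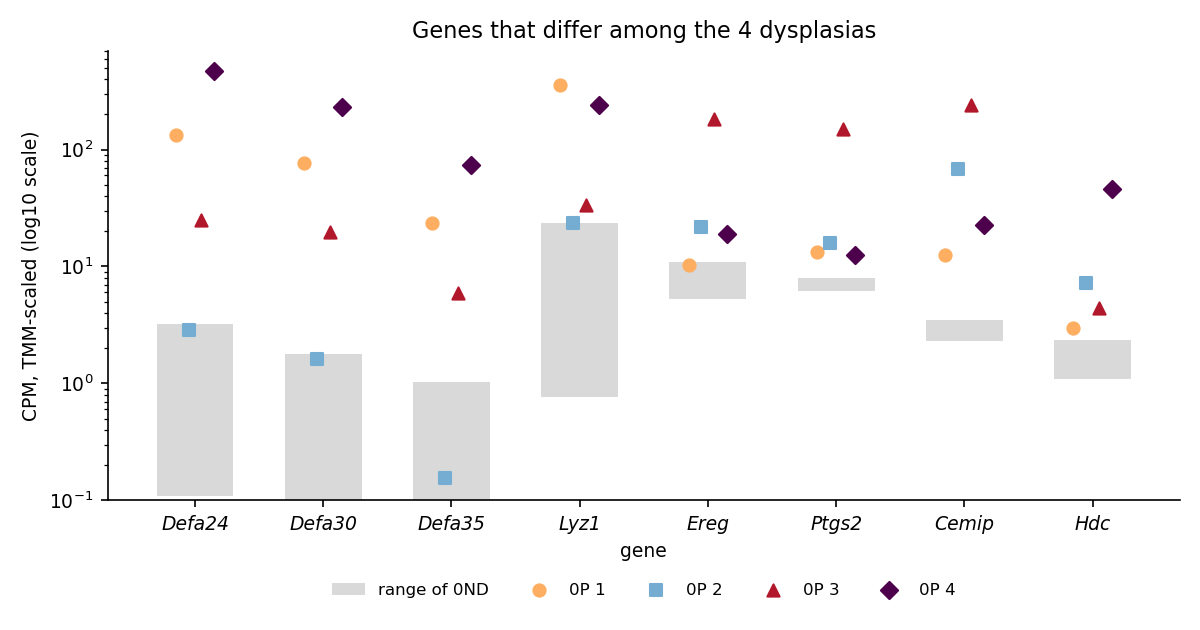
Levels in the 4 dysplasias (CPM, log10 y axis, 1 marker shape for each library) are drawn for 8 genes that differ among them, with the range of the 4 epithelia as a grey bar that starts at 0.1 CPM where the lowest was below that. The defensins and Lyz1 are highest in 0P 4 or 0P 1, Ereg, Ptgs2 and Cemip in 0P 3, and Hdc in 0P 4.

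Genes of fetal and regenerating epithelium rose at 31 of 53 and fell at 1, the RNA-binding protein Igf2bp2 (41.4 ± 4.1 to 13 ± 8.3 CPM, log2 fold change -1.67 ± 0.43), with a median of 1.17. Cldn4, a tight junction claudin, moved from 7.65 ± 1.45 to 96.7 ± 24.3 CPM, log2 fold change 3.67 ± 0.33. Il33, an alarmin cytokine of injured epithelium, read 4.21, 4.06, 6.63 and 4.55 CPM in 0ND and 27.1, 58, 39.8 and 38.5 CPM in 0P (log2 fold change 3.07 ± 0.32, adjusted p = 2.4e-06). Other well-known members were not called, among them clusterin, Clu (46.5 ± 22.7 to 135 ± 115 CPM, log2 fold change 1.52 ± 0.62, adjusted p = 0.0742), and the GPI-anchored Ly6a (44.6 ± 9.26 to 48.2 ± 25.9 CPM, log2 fold change 0.12 ± 0.34, adjusted p = 0.835). The call of Clu depended on the fit, and DESeq2 made it (adjusted p = 0.0361).

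Keratins of stratified epithelia were among those that rose, and over the list 11 of 18 rose and 1 fell (median 2.15). Krt23 read 1.85, 2.47, 4.14 and 2.27 CPM in 0ND and 62.1, 94.6, 97 and 134 CPM in 0P (log2 fold change 5.20 ± 0.50, adjusted p = 2.62e-06). Krt14, a basal-layer keratin of skin, read 0.319, 0.529, 0.947 and 0.108 CPM in 0ND and 26.2, 28.1, 13.4 and 33.2 CPM in 0P (log2 fold change 5.79 ± 0.75, adjusted p = 2.46e-05). Krt17 and the hair keratin Krt36 moved from 0.49 ± 0.739 to 20.5 ± 6.26 CPM, log2 fold change 5.72 ± 0.74 and from 0.743 ± 0.532 to 53.9 ± 30.6 CPM, log2 fold change 6.14 ± 0.90. Krt20, a keratin of differentiated colonocytes, was the member that fell (356 ± 63.4 to 143 ± 74.2 CPM, log2 fold change -1.32 ± 0.30). The simple-epithelium keratins Krt8 (1126 ± 163 to 939.7 ± 199.7 CPM, log2 fold change -0.26 ± 0.19, adjusted p = 0.338) and Krt19 (664 ± 125 to 629 ± 139.5 CPM, log2 fold change -0.08 ± 0.19, adjusted p = 0.8) were not called. Dsg3, a desmosomal cadherin of stratified epithelia, moved from 0.398 ± 0.0906 to 24.5 ± 17 CPM, log2 fold change 5.95 ± 0.91, within a junction list in which 8 of 46 rose (17.4%) and 11 fell (23.9%). The junction genes that fell numbered 5 to 7 without 0ND 2, 0ND 4, 0P 2, 0P 3 or 0P 4. Those that rose numbered 5 with a mean of at least 5 CPM.

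Proteases and the basement membrane changed with them. Of 46 metalloproteinase and plasminogen system genes 22 rose and 5 fell (median 0.60). Plat, tissue plasminogen activator, read 3.06, 4.06, 4.5 and 2.82 CPM in 0ND and 48.2, 187, 177 and 133 CPM in 0P (38.3-fold, log2 fold change 5.26 ± 0.48, adjusted p = 1.67e-06). The metalloproteinases Mmp10 and Mmp9 moved from 1.2 ± 0.227 to 39.1 ± 25.5 CPM, log2 fold change 4.98 ± 0.53 and from 0.813 ± 0.335 to 12.2 ± 6.5 CPM, log2 fold change 3.89 ± 0.43. Integrin and laminin subunits rose at 19 of 40 and fell at 4 (median 0.51). Lama5, a laminin chain of the epithelial basement membrane, read 38.1, 44.4, 32.4 and 32.5 CPM in 0ND and 165, 238, 229 and 165 CPM in 0P (log2 fold change 2.44 ± 0.23, adjusted p = 1.06e-06).

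Signalling outside the Wnt pathway was examined by lists as well. Feedback genes of ERK signalling and immediate early genes, counted as 1 list, rose at 15 of 44 and fell at 5 (median 0.31). Etv5, an ETS factor induced by ERK, read 22.9, 12.7, 17.5 and 14.2 CPM in 0ND and 54.8, 144, 149 and 110.1 CPM in 0P (log2 fold change 2.75 ± 0.32, adjusted p = 8.39e-06). The ERK phosphatase Dusp4 read 11.4, 6.0, 10.5 and 4.87 CPM in 0ND and 41.1, 89.2, 71.8 and 55.6 CPM in 0P (log2 fold change 2.95 ± 0.47, adjusted p = 0.000185). Phlda1 moved from 23.8 ± 5.56 to 191 ± 32.1 CPM, log2 fold change 3.00 ± 0.33. The immediate early gene Fos fell (44.6 ± 7.85 to 25.2 ± 9.99 CPM, log2 fold change -0.83 ± 0.24) and Egr1 was not called (14.9 ± 2.1 to 19.1 ± 1.21 CPM, log2 fold change 0.36 ± 0.28, adjusted p = 0.364). Among EGF family ligands, receptors and RAS-ERK kinases 7 of 31 rose and 5 fell (22.6% and 16.1%, near the shares of all tested genes). The ligands Btc (5.58 ± 1.49 to 20.7 ± 4.11 CPM, log2 fold change 1.90 ± 0.25), Tgfa (19 ± 2.43 to 40.7 ± 6.03 CPM, log2 fold change 1.11 ± 0.16) and Nrg1 (22.1 ± 10.9 to 149 ± 92.4 CPM, log2 fold change 2.75 ± 0.51) rose and the receptor Erbb3 fell (260.0 ± 84.5 to 107 ± 29.7 CPM, log2 fold change -1.28 ± 0.22).

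In the Hippo list 11 of 26 rose and none of those tested fell, led by Tead2, the partner of YAP on DNA, which read 6.88, 6.17, 4.62 and 2.92 CPM in 0ND and 33.8, 50.3, 51 and 41.7 CPM in 0P (8.52-fold, log2 fold change 3.09 ± 0.28, adjusted p = 8.9e-07). TGF-beta and BMP genes rose at 19 of 58 (32.8%) and fell at 9 (15.5%), against 15.9% and 15.7% of all tested genes. Bmp7, a secreted ligand, moved from 7.14 ± 0.416 to 44.4 ± 8.26 CPM, log2 fold change 2.63 ± 0.34. Notch genes rose at 7 of 27 (25.9%) and fell at 3 (11.1%). The receptor Notch1 moved from 61.6 ± 7.69 to 104 ± 15.8 CPM, log2 fold change 0.75 ± 0.13 and the ligand Jag2 from 6.07 ± 1.0 to 19.5 ± 4.96 CPM, log2 fold change 1.67 ± 0.30. Among IGF and imprinted genes 8 of 23 rose (34.8%) and 6 fell (26.1%), with Igfbp5, an IGF carrier, from 281 ± 88.5 to 920.2 ± 136 CPM, log2 fold change 1.71 ± 0.42. Eph receptors and ephrins rose at 6 of 18 (33.3%) and fell at 3 (16.7%, near the share of all tested genes), led by the kinase-dead receptor Ephb6 (1.3 ± 0.506 to 37.8 ± 14.4 CPM, log2 fold change 4.85 ± 0.42).

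Proliferation genes rose moderately. Replication genes were higher at 25 of 58 and mitotic genes at 37 of 68, with none called lower in either list and medians of 0.48 and 0.57. The mitotic count was 24 without 0ND 1, 22 without 0ND 4 and 15 without 0P 2. Mcm2, a subunit of the replicative helicase, moved from 21.1 ± 0.452 to 38.3 ± 4.52 CPM, log2 fold change 0.86 ± 0.13. Top2a, topoisomerase II, read 120.1, 187, 132 and 94.2 CPM in 0ND and 208, 317, 232 and 295 CPM in 0P (log2 fold change 0.98 ± 0.18, adjusted p = 0.000357). In Top2a the lowest dysplasia exceeded the highest epithelium by a small margin. The proliferation marker Mki67 read 347, 567, 361 and 289 CPM in 0ND and 437, 589, 376 and 346 CPM in 0P (log2 fold change 0.16 ± 0.19, adjusted p = 0.555) and was not called, and its groups overlapped widely. Cyclins, their kinases and inhibitors split, with 7 of 19 higher and 4 lower. Cdk4, the G1 kinase, moved from 27 ± 2.99 to 64.4 ± 10.5 CPM, log2 fold change 1.25 ± 0.15. Cdkn2a, whose products p16 and p19Arf inhibit CDK4 and stabilise p53, read 0.191, 0, 0.237 and 0.217 CPM in 0ND and 2.99, 5.69, 8.64 and 6.16 CPM in 0P (log2 fold change 4.95 ± 0.62, adjusted p = 9.41e-06).

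Ribosome biogenesis was the most uniform gain among the pathway lists. Of 66 tested factors of ribosome assembly and RNA polymerase I, 54 rose and 1 fell, at a median log2 fold change of 0.71. Nucleolin, Ncl, read 590.2, 578, 698 and 573 CPM in 0ND and 968, 1145, 894 and 2018 CPM in 0P (log2 fold change 1.04 ± 0.24, adjusted p = 0.00216), highest in 0P 4, and Nhp2, a snoRNP protein, and Ltv1, a factor of small-subunit export, moved from 10.2 ± 0.638 to 26 ± 4.31 CPM, log2 fold change 1.36 ± 0.18 and from 21.2 ± 4.32 to 65.5 ± 22.2 CPM, log2 fold change 1.63 ± 0.22. Utp20, a large scaffold of the processome, was the member that fell and read 225, 229, 193 and 281 CPM in 0ND and 119, 112, 85.9 and 95 CPM in 0P (log2 fold change -1.17 ± 0.12, adjusted p = 2e-06). The ribosomal proteins themselves did not follow: 2 of 77 rose and 1 fell (median 0.22). Genes of p53 and its targets rose at 13 of 32 (40.6%) and fell at 4 (12.5%). Cell death regulators were called at 9 of 41 (22%) in each direction, against 15.9% higher and 15.7% lower of all tested genes.

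**Figure D4:**
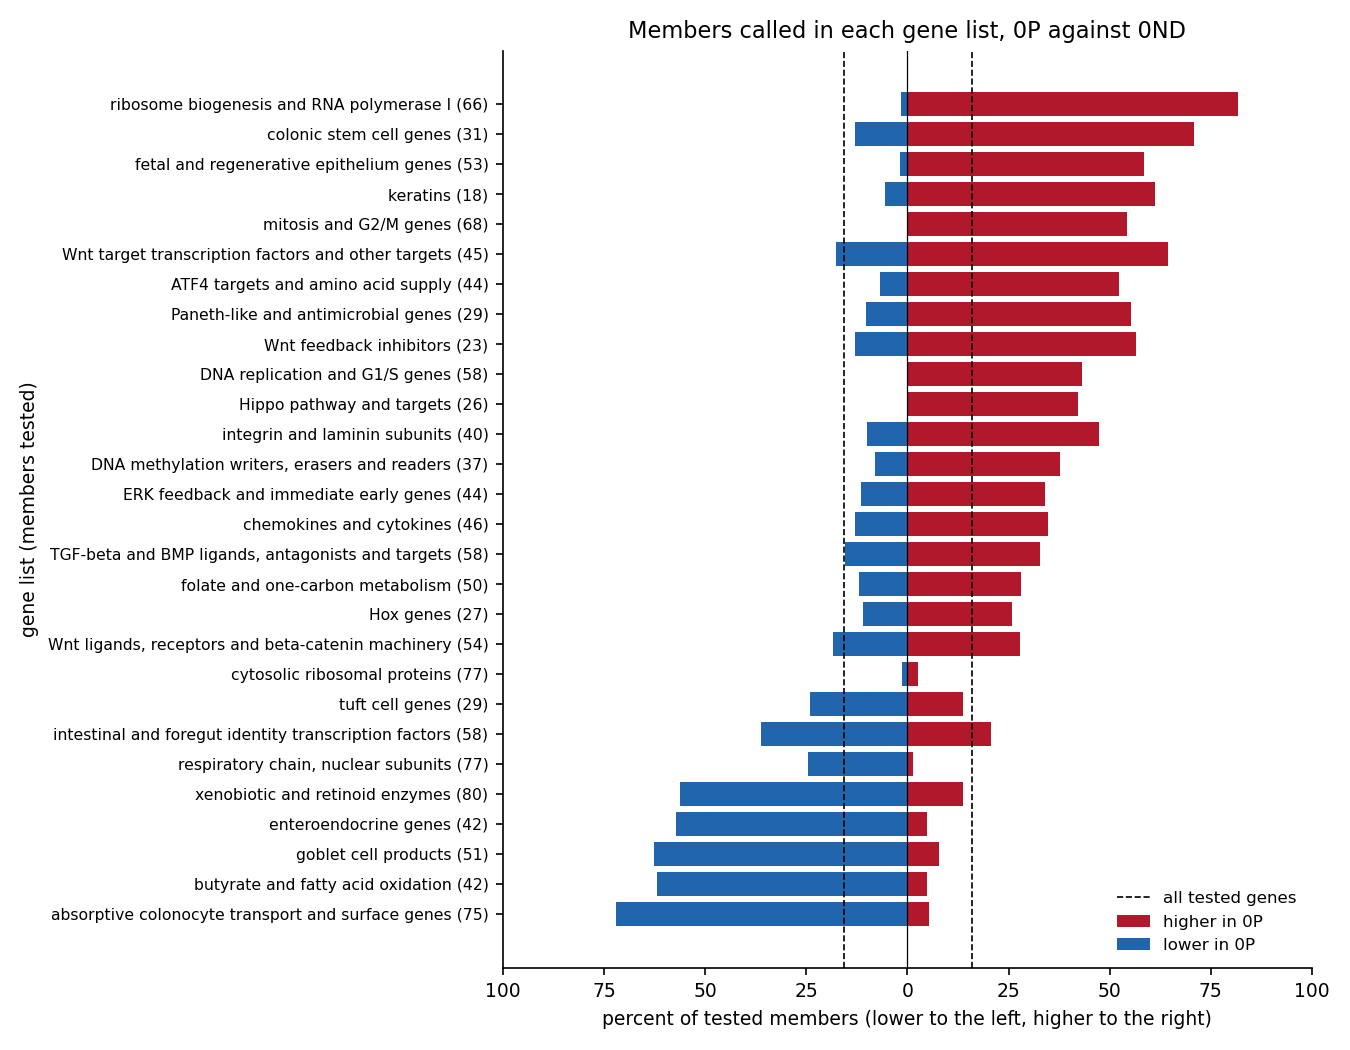
For each of 28 gene lists the bar to the right is the percent of tested members higher in 0P and the bar to the left the percent lower, with the number tested in brackets. The dashed lines mark the percent of all 20787 tested genes called higher (15.9%) and lower (15.7%), and ribosome biogenesis (81.8% higher) and absorptive genes (72% lower) extend farthest.

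Since the mice ate no folic acid, genes of folate and one-carbon metabolism were examined as a group. Of 50 tested, 14 rose and 6 fell, with a median of 0.26, so 28% were higher and 12% lower against 15.9% and 15.7% of all genes. The smallest p-values belonged to Mtap, Ahcyl2, Cth and Slc19a3. Slc19a3, which despite its family carries thiamine, rose from 0.433 ± 0.246 to 4.24 ± 0.48 CPM, log2 fold change 3.32 ± 0.46, the largest change among the members called. Mtap, which returns methylthioadenosine to methionine, read 8.86, 11.1, 7.1 and 6.82 CPM in 0ND and 28.4, 35.6, 33.5 and 36.1 CPM in 0P (3.97-fold, log2 fold change 1.99 ± 0.17, adjusted p = 4.94e-07). Ahcyl2, a homologue of S-adenosylhomocysteine hydrolase, read 499.7, 327, 394 and 571 CPM in 0ND and 148, 97.5, 86.2 and 76.6 CPM in 0P (4.39-fold lower, log2 fold change -2.13 ± 0.22, adjusted p = 2e-06). Cth, which makes cysteine from cystathionine, read 21.7, 19.6, 25.5 and 21.9 CPM in 0ND and 8.72, 6.39, 6.31 and 5.54 CPM in 0P (log2 fold change -1.72 ± 0.18, adjusted p = 2.4e-06). The tissues did not overlap in Mtap, Ahcyl2 or Cth.

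Among the 30 members that were not called, 4 of known roles are given here. Thymidylate synthase, Tyms, read 25.9, 34.7, 28.2 and 26.2 CPM in 0ND and 25.3, 37.2, 29.6 and 25.1 CPM in 0P (log2 fold change 0.03 ± 0.17, adjusted p = 0.917), and the groups overlapped throughout. The trifunctional enzyme Mthfd1 (41.2 ± 4.9 to 43.4 ± 5.57 CPM, log2 fold change 0.08 ± 0.17, adjusted p = 0.768) and the carriers Slc19a1 (5.54 ± 1.35 to 6.76 ± 2.22 CPM, log2 fold change 0.29 ± 0.28, adjusted p = 0.476) and Slc46a1 (7.11 ± 2.53 to 5.47 ± 1.0 CPM, log2 fold change -0.36 ± 0.34, adjusted p = 0.471) were not called. Among DNA methylation genes 14 of 37 rose and 3 fell. The maintenance methyltransferase Dnmt1 read 85.1, 86.4, 71.5 and 76 CPM in 0ND and 115, 126, 109 and 116 CPM in 0P (log2 fold change 0.55 ± 0.12, adjusted p = 0.00169), and its partner Uhrf1 and the de novo enzyme Dnmt3b moved from 31 ± 6.81 to 49.3 ± 11.1 CPM, log2 fold change 0.68 ± 0.17 and from 4.71 ± 0.703 to 9.21 ± 2.88 CPM, log2 fold change 0.96 ± 0.25. The demethylase Tet1 was not called (10.6 ± 2.82 to 12.3 ± 4.56 CPM, log2 fold change 0.23 ± 0.32, adjusted p = 0.632).

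Genes for burning fatty acids, the main fuel of colonocytes, fell together. Butyrate and fatty acid oxidation genes fell at 26 of 42 and rose at 2 (median -0.71). The coactivator Ppargc1b moved from 75.9 ± 10.9 to 18.7 ± 6.79 CPM, log2 fold change -2.02 ± 0.21, the butyrate-activating enzyme Acsm3 from 126 ± 34.6 to 25.9 ± 8.31 CPM, log2 fold change -2.28 ± 0.30, and Pdk4, which blocks pyruvate entry to the citric acid cycle, rose from 4.6 ± 2.92 to 28.3 ± 14.2 CPM, log2 fold change 2.68 ± 0.48. Nuclear-encoded respiratory chain subunits fell at 19 of 77 (12 without 0P 3) and rose at 1. Glycolysis genes fell at 16 of 49 and rose at 4. Among 13 mitochondrially encoded genes 1 was called, and their summed level was 109750 ± 11109 CPM in 0ND and 107972 ± 13522 CPM in 0P (exact permutation p = 0.8286).

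Amino acid supply genes controlled by ATF4 rose at 23 of 44 and fell at 3 (median 0.58), and sterol and fatty acid synthesis genes rose at 18 of 50 (11 without 0ND 4) and fell at 5. Polyamine genes rose at 5 of 20 (25%, against 15.9% of all tested genes). Unfolded protein response genes rose at 5 of 56 (8.93%) and fell at 10 (17.9%, near the 15.7% of all tested genes), and 5 fell with total counts in place of TMM and 6 with no filter on low counts. Circadian clock and output genes fell at 12 of 24 and rose at 4 (median -0.72). The output factor Dbp read 25.4, 42.9, 55.1 and 42.8 CPM in 0ND and 13.6, 4.23, 7.0 and 5.1 CPM in 0P (log2 fold change -2.48 ± 0.47, adjusted p = 0.000641), Per3 moved from 112 ± 21.1 to 35.2 ± 14.1 CPM, log2 fold change -1.67 ± 0.23 and Hlf from 17.7 ± 4.72 to 3.47 ± 2.61 CPM, log2 fold change -2.33 ± 0.38. The hour at which tissue was taken was not given in the sources used here.

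Zinc handling held some of the largest gains of all. Slc30a2, a zinc exporter into secretory granules, read 3.7, 0.176, 3.91 and 0.433 CPM in 0ND and 154, 218, 411 and 412 CPM in 0P (131-fold, log2 fold change 7.03 ± 1.05, adjusted p = 0.000135). Mt4 and Mt3, metallothioneins otherwise known from stratified epithelium and brain, read 0.127, 0.705, 0 and 0 CPM in 0ND and 12.8, 8.08, 50.4 and 36.3 CPM in 0P (log2 fold change 7.30 ± 1.29, adjusted p = 0.000459) and moved from 0.316 ± 0.235 to 23.3 ± 12.6 CPM, log2 fold change 6.11 ± 0.90. In Mt4 0P 3 and 0P 4 were the highest. The widespread metallothionein Mt1 was not called (15.5 ± 1.5 to 18.4 ± 4.76 CPM, log2 fold change 0.24 ± 0.25, adjusted p = 0.517). Over the list 7 of 25 rose (28%) and 5 fell (20%), against 15.9% and 15.7% of all tested genes.

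Lipid mediators and cytokines changed in part. Alox12, a lipoxygenase that acts on arachidonate, read 1.47, 1.23, 1.78 and 1.62 CPM in 0ND and 27.6, 67.6, 68.2 and 61 CPM in 0P (36.2-fold, log2 fold change 5.18 ± 0.60, adjusted p = 1.09e-05). Hpgd, which inactivates prostaglandins, read 86.3, 99.5, 99.2 and 122 CPM in 0ND and 29.6, 16.4, 14.4 and 18.2 CPM in 0P (log2 fold change -2.37 ± 0.31, adjusted p = 2.22e-05). Abcc4, a prostaglandin exporter, moved from 31.2 ± 3.07 to 129 ± 28.2 CPM, log2 fold change 2.05 ± 0.19. Over prostaglandin genes 10 of 30 rose (33.3%) and 7 fell (23.3%). Chemokines and cytokines rose at 16 of 46 and fell at 6, with the neutrophil attractant Cxcl5 reading 1.98, 0.705, 1.66 and 0.433 CPM in 0ND and 12.3, 20.2, 10.02 and 31.3 CPM in 0P (log2 fold change 3.85 ± 0.54, adjusted p = 4.36e-05) and Il1b reading 3.12, 1.76, 2.84 and 1.62 CPM in 0ND and 8.01, 16.9, 15.6 and 17.4 CPM in 0P (log2 fold change 2.59 ± 0.45, adjusted p = 0.000229). Ccl28, which draws IgA plasma cells, fell from 168 ± 61.4 to 21.1 ± 19.6 CPM, log2 fold change -2.98 ± 0.47. Epithelial defence and oxidant genes rose at 18 of 53 and fell at 8 (13 without 0P 1), and interferon response genes at 4 and 5 of 58 (6.9% and 8.62%, both below the shares of all tested genes). In the antigen presentation list 6 of 38 fell (15.8%, against 15.7% of all tested genes) and none of the others passed the test.

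The dissected tissue held transcripts of other cell types in both groups, and their amounts differed. Markers of B and plasma cells summed to between 3181 and 5531 CPM in the 4 epithelia and between 1277 and 1818 CPM in the dysplasias, and those of smooth muscle to between 1833 and 4141 and between 1169 and 1708 CPM. Fibroblast and matrix markers summed to between 2338 and 2604 CPM in 0ND and between 3124 and 3791 CPM in 0P, and neutrophil markers to between 20.8 and 33.4 and between 39.5 and 72.4 CPM. For each of these the groups did not overlap and the exact permutation p was 0.0286, the smallest that 4 against 4 allows (two-sided), with an adjusted p of 0.0857 over the 18 library measures compared. Epithelial markers summed to 5334 ± 602 CPM in 0ND and 4581 ± 617 CPM in 0P (exact permutation p = 0.143), with 5 of 12 called lower and 1 higher. For the summed markers of T and NK cells, macrophages and dendritic cells, mast cells, adipocytes and pancreas, and red cells, the exact permutation p lay between 0.0571 and 0.686.

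By single genes, 13 of 16 smooth muscle markers fell and none rose, 5 of 19 B and plasma cell markers fell, 9 of 11 neutrophil markers rose and 1 fell, and 8 of 11 mast cell markers rose and 1 fell. With a mean of at least 5 CPM required, 2 neutrophil and 5 mast cell markers were called higher. The immunoglobulin light chain Igkc read 1003, 1384, 2198 and 1486 CPM in 0ND and 583, 511, 417 and 747 CPM in 0P (log2 fold change -1.43 ± 0.52, adjusted p = 0.0456), a call that was lost without any library other than 0ND 1 (adjusted p 0.0614 to 0.122), and the smooth muscle myosin Myh11 moved from 969.6 ± 454 to 332 ± 135 CPM, log2 fold change -1.54 ± 0.34. Fibroblast markers were divided, with 10 of 26 higher, among them Col1a1 (131 ± 27 to 315 ± 33 CPM, log2 fold change 1.27 ± 0.27), and 7 lower. Macrophage markers rose at 8 of 22 (4 without 0ND 3, 0P 1 or 0P 4), and the fibroblast markers called higher numbered 6 without 0ND 1. The endothelial sum was higher in 0P (360.3 ± 58.3 against 997 ± 212 CPM), but without Prox1 and Sox17, which are not confined to endothelium, it was 328 ± 52.0 and 313 ± 39.1 CPM (exact permutation p = 0.657). The sum of enteric glia and neuron markers was lower in 0P (342 ± 66.6 against 178 ± 36.7 CPM), but without Erbb3, which epithelium also expresses, it was 93.5 ± 23.2 and 70.7 ± 5.13 CPM with overlapping groups (exact permutation p = 0.143), and 4 of 12 members were called lower and 2 higher. The part of these cell types in the gene lists above was not tested, and Rspo3, Wnt2b and the cytokines are among the genes that stromal or immune cells express.

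Some genes were read almost only in dysplasia. A set of 30 genes had at most 3 counts over the 4 epithelia and at least 10 in each dysplasia, 17 of them with a gene name, and no gene met the reverse rule. Cyp2b10, an inducible cytochrome P450, had 0 counts in 0ND and 224 in 0P, at least 61.3-fold higher against a floor of 3 counts over the group. Ush1g, a scaffold protein of hair cells, had 0 and 217 counts (at least 59.3-fold) and Otop2, a proton channel, 0 and 191 (at least 52.2-fold). Upk3a, a uroplakin of the bladder lining, had 0 and 109 counts (at least 29.8-fold). The chemokine Cxcl2 had 2 and 312 counts (ratio 128, exact 95% interval 35.1 to 1061), Fetub, a protease inhibitor made by the liver, 2 and 289 (ratio 118.5, 32.5 to 983) and Dlx3, a homeobox factor of skin, 3 and 250 (ratio 68.4, 23.1 to 334). The intervals and floors cover counting error only. All 30 genes, Sp5 above among them, were chosen by these same counts, so their ratios may be too large.

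The study singled out 15 genes that it reported as differing between 8ND and 0ND in both DNA methylation and expression. That choice used the expression of these same samples, 0ND among them, so their directions here are no independent evidence. In the present test 9 were higher in 0P, 4 were lower and 2, Tns4 (165 ± 54.9 to 205 ± 32.6 CPM, log2 fold change 0.31 ± 0.36, adjusted p = 0.556) and Spink4, were not called. Atp11a, a phospholipid flippase, was among the tightest differences of all and read 79.8, 82.7, 72.9 and 75 CPM in 0ND and 196, 193, 190.0 and 195 CPM in 0P (log2 fold change 1.32 ± 0.11, adjusted p = 4.7e-07). The 4 dysplasias differed from each other by a few percent and all exceeded the epithelia more than 2-fold. Slc4a11, a membrane transporter, moved from 1.0 ± 0.517 to 13 ± 3.66 CPM, log2 fold change 3.69 ± 0.40, the matrix protein Thbs1 from 53 ± 12.7 to 262 ± 104 CPM, log2 fold change 2.30 ± 0.25 and the ephrin receptor Epha2 from 9.82 ± 1.5 to 39.7 ± 8.76 CPM, log2 fold change 2.02 ± 0.25. Among those lower, the lysosomal sialidase Neu1 moved from 109 ± 30.2 to 41.5 ± 7.91 CPM, log2 fold change -1.39 ± 0.18, the fucosyltransferase Fut9 from 155 ± 51.5 to 37.2 ± 7.55 CPM, log2 fold change -2.06 ± 0.51 and Rims4, a synaptic scaffold protein, from 26.4 ± 9.15 to 4.14 ± 2.0 CPM, log2 fold change -2.66 ± 0.47.

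The same tissues from mice fed 8 mg/kg FA gave a second, separate comparison, in which 5869 of the 20787 genes (28.2%) were called between 8P and 8ND. Of the 3304 genes higher in 0P, 3200 (96.9%) had the same sign in 8P against 8ND, 2007 (60.7%) were also called higher and 0 were called lower. Of the 3258 genes lower in 0P, 3089 (94.8%) had the same sign, 2122 (65.1%) were also called lower and 0 were called higher. Median log2 fold changes of these genes were 0.92 on the folate-free diet and 0.60 on 8 mg/kg for the first set, and -1.06 and -0.76 for the second. The genes were picked by their size in the first comparison, so some shrinkage in the second follows from the choice.

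The difference of the 2 effects was then tested gene by gene. With edgeR 0 genes passed the adjusted threshold and the smallest adjusted p was 0.22, while 2163 had an unadjusted p under 0.05. DESeq2 called 82, limma-voom 0, and edgeR called 2 without 0P 1 and 26 without 8ND 3. Among the members, the log2 fold change of Axin2 was 3.06 ± 0.24 on the folate-free diet and 1.97 ± 0.21 on 8 mg/kg, and that of Pla2g2a was 4.68 ± 0.47 and 1.99 ± 0.37. That of Slc26a3 was -4.27 ± 0.60 and -3.99 ± 0.54, and that of Muc2 was -1.73 ± 0.47 and -2.60 ± 0.43. The smallest p-values of the difference included Cers3, a ceramide synthase, at 4.80 ± 0.39 and 2.01 ± 0.28, and the tubulin Tubb2b at 3.64 ± 0.29 and 1.67 ± 0.24. At the adjusted threshold no gene's dysplasia effect was shown by edgeR to differ between the diets, which does not show that the effects were equal.

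**Figure D5:**
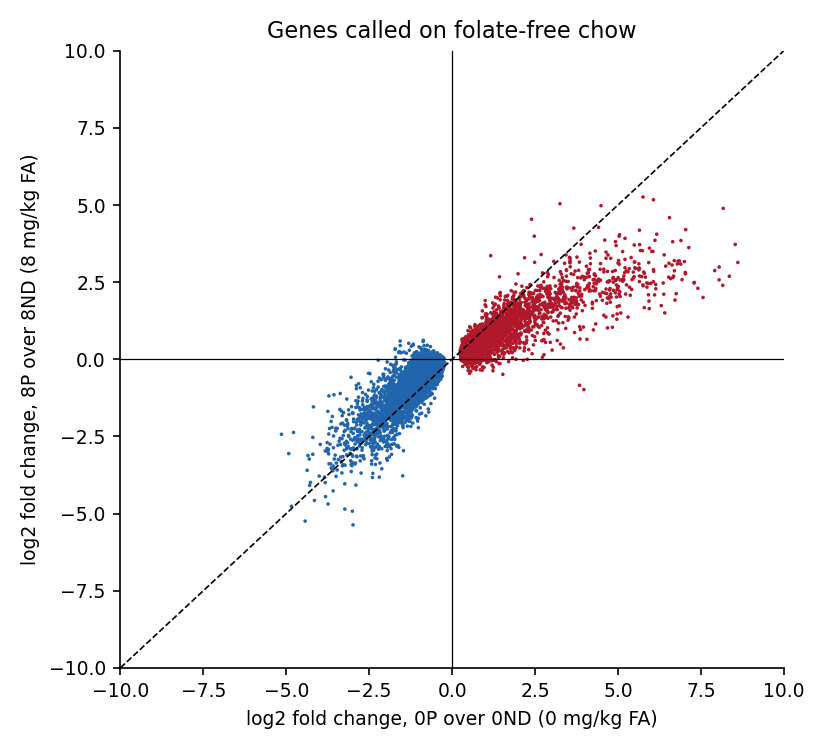
Each point is 1 of the 6562 genes called between 0P and 0ND, with its log2 fold change on folate-free chow on the x axis and on 8 mg/kg chow on the y axis, in red where higher and in blue where lower in 0P. The dashed line marks equal change, and 3200 of the 3304 higher and 3089 of the 3258 lower genes fall in the quadrants of equal sign.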

How the data were processed

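Polyps and non-dysplastic epithelium were laser-microdissected from formalin-fixed colon, and RNA (40 ng) was made into SMARTer Stranded Pico v2 libraries. The authors aligned reads with Bowtie to mm10 and counted them per gene with HTSeq. Tool versions and the strand setting were not given in the sources used here, so genes that overlap on opposite strands may share reads, and fixed RNA is fragmented. The deposited values were raw counts for each gene. The 5 summary lines of each table, reads on no gene or not uniquely placed, were left out of library sizes and tests.

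Groups were taken from the sample titles. Counts of all 18 libraries were filtered (filterByExpr, minimum count 10) and fitted as 1 mean per group with edgeR 4.0.16 in R 4.3.3, with TMM scaling and the robust quasi-likelihood test. The 0P against 0ND and 8P against 8ND contrasts and their difference were tested, each with Benjamini-Hochberg adjustment at 0.05. Marker sums were compared by exact permutation tests over libraries, two-sided, with SciPy 1.17.1. Library pairs of a group were compared for duplicated counts and none was merged. Alternatives were DESeq2 1.42.0, limma-voom (limma 3.58.1), other scalings and filters, the 8 libraries alone, the replicate number as a block, and each library left out. Tested on simulated data (20430 genes, 0P against 0ND), the fit recovered 10.2% of genes changed 1.5-fold, 38.8% at 2-fold, 78% at 4-fold and 94% at 8-fold, with 5 false calls of 115. The simulation changed 50 genes at each of these sizes, against 6562 genes called in the data. The adjusted threshold is stricter when fewer genes change, so these shares do not measure the sensitivity of the real comparison.

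The gene lists, motifs and gene families were chosen with earlier results of these data known, so list counts are descriptions. Some genes are in several lists, so the lists are not independent of each other. Named genes followed a rule: the called genes with the largest changes in either direction at a mean of at least 5 CPM without overlap, those gaining or losing most CPM, genes with at most 3 counts in 1 group and at least 10 in each library of the other, the 4 members of each list with the smallest p and those called beyond a log2 change of 2, the genes with the widest spread within a group at a mean of at least 20 CPM, those with the smallest p of the diet difference, and the 15 genes the study singled out. Not all genes that met it are named, and the results of some are not reported here. Of the 176 genes named in the report, 146 met the rule and 30 were named after their values were seen. Gene positions and classes came from GENCODE M21 on the same build, and promoter sequences from RefSeq on GRCm38.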

Additional observations from a re-analysis of the deposited data

Results flagged for a closer look

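In 14 of 174 groups of 4 libraries (CPM of the genes given library by library, and marker sums), 1 library stood apart from the other 3: its gap to the nearest of them, as a share of the group's range, exceeded Dixon's 95% critical value. For groups not chosen by their values chance gives about 1 in 20, but some of these genes were named for a wide spread within a group, so that rate does not hold for this set. 0P 1 was the high library in 4 of them. It read 137 CPM for Aqp4 against 24.6 to 42.9 in the other dysplasias (share 0.837), 10.4 CPM for Aqp8 against 0.249 to 1.65 (0.862), 9.86 CPM for Cyp2c55 against 0.933 to 1.85 (0.898) and 5.37 CPM for Gcg against 0.923 to 1.23 (0.93). All 4 genes fell in 0P.

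0P 3 stood apart for Ereg, at 183 CPM against 10.2 to 21.9 (0.932), and for Ptgs2, at 151 CPM against 12.5 to 15.8 (0.976). 0P 4 stood apart for Hdc, at 45.7 CPM against 2.99 to 7.23 (0.901), and for Rnf43, at 550.3 CPM against 342 to 374 (0.848).

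Among the epithelia, 0ND 3 was high for Rnf43, at 84.1 CPM against 59.7 to 63.1 (0.858), for Ncl, at 698 CPM against 573 to 590.2 (0.863), and for the summed B and plasma cell markers, at 5531 CPM against 3181 to 3504 (0.863). 0ND 1 was high for Muc2, at 5899 CPM against 3511 to 3725 (0.91). It also held the only counts of the group for Sp5, 0.127 CPM, and for Defa22, 0.765 CPM, against 0 in the other 3 libraries, so the gap was the whole range in both (1).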

How the results depend on the processing

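The count of genes called between 0P and 0ND was 6562 and lay within 1.5 times of it under every alternative run: 7030 with DESeq2, 6691 with limma-voom, 6607 with RLE size factors, 6146 with total counts in place of TMM, 5634 with no filter on low counts, 5278 with a mean of at least 5 CPM, 6277 with only the 8 libraries, and between 5302 (without 0P 4) and 6606 (without 0P 1) with 1 library left out. No gene was called in the opposite direction by any of them, and 76.4% to 99.4% of the 6562 genes were called again. The lowest share came with the filter at 5 CPM, under which 1519 of them were not tested, and the count of genes changed at least 2-fold fell from 3300 to 1935. Without TMM 3379 of 6146 calls were higher in 0P.

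The number of genes whose dysplasia effect differed between the diets was 0 in edgeR, 82 with DESeq2, 0 with limma-voom and 1 with no filter, and 0 to 26 with 1 library left out (2 without 0P 1, 26 without 8ND 3). Leaving out 8ND 1 and 8ND 2 together, chosen after seeing the data, gave 0.

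Replicate numbers recur in both tissues, and the labels do not say whether same-numbered libraries share a mouse. Deviations from the group means correlated at 0.17, 0.0873, 0.145 and -0.00868 for same-numbered libraries. For libraries of different number they ran from -0.147 to 0.0741, below 0.17, 0.145 and 0.0873. The main test did not treat the numbers as pairs, and whether they are pairs was not tested. With the replicate block 5982 genes were called, 2907 of them higher and 3094 changed at least 2-fold.

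Of the genes named in the report 159 were called, none changed sign under any alternative, and at most 9 lost their call under any one. Calls lost outside the leave-one-out fits included Clca1 (adjusted p = 0.0788) and Igkc (0.13) in edgeR with no filter, Hoxd12 with DESeq2 (0.0817), and Defa22 (0.229), Sox2 (0.12), Ereg (0.153) and Ptgs2 (0.112) with limma-voom. Clu was called with DESeq2 (0.0361) and with the replicate block (0.00213), and Reg3g with DESeq2 (0.0356). The log2 ratio of the summed endothelium markers was 1.47 and, without Prox1 and Sox17, -0.066, and that of enteric glia and neuron markers was -0.95 and, without Erbb3, -0.40 (both chosen after seeing the data). Of 50 list counts of 8 or more, 7 moved by over 1.5 times without a single library, and of 60 smaller counts 21 did. With the filter at 5 CPM, 4 of 39 list counts of 10 or more moved as far. The causes were not tested. In the simulated comparison of 0P with 0ND 10.2% of 1.5-fold changes were called, with far fewer changed genes than in the data. It was run at the depth of these libraries only, so how depth limits the calls was not tested.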

Other observations

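Gene families outside the lists were also counted, by the stem of the gene symbol, and those named here were chosen after their values were seen, with no test of the family. Against 15.9% of all tested genes higher and 15.7% lower in 0P, regulatory subunits of the proteasome (Psmd) were higher at 11 of 14 and lower at 0 (median log2 fold change 0.59). Psmd7 rose from 52.1 ± 4.06 to 93.5 ± 20.8 CPM (log2 fold change 0.85 ± 0.15, edgeR adjusted p = 0.000275). The RNA helicases named Ddx were higher at 17 of 34 and those named Dhx at 10 of 16, with 0 and 1 lower, and some belong to the ribosome biogenesis list. Host genes of small nucleolar RNAs (Snhg) were higher at 8 of 13 and lower at 1. Cluster protocadherins of the beta family (Pcdhb), adhesion molecules known from neurons, were higher at 14 of 21 and lower at 0 (median 1.38), from low levels, and their median was 1.45 in 8P against 8ND. They are similar copies in 1 cluster, so reads may be divided among them.

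Collagen genes (Col) were higher at 18 of 39 and lower at 5. Col18a1, a basement membrane collagen, rose from 56.0 ± 9.74 to 202 ± 34.4 CPM (log2 fold change 1.85 ± 0.28, edgeR adjusted p = 9.42e-05), and Col17a1, the hemidesmosomal collagen of basal keratinocytes, from 1.63 ± 0.696 to 11.4 ± 4.43 CPM (log2 fold change 2.88 ± 0.49, edgeR adjusted p = 0.000209). Polypeptide GalNAc-transferases (Galnt), which start the O-glycans of mucins, were lower at 9 of 17 and higher at 3, and Galnt7 fell from 145 ± 13.5 to 70.1 ± 17.0 CPM (log2 fold change -1.05 ± 0.16, edgeR adjusted p = 6.42e-05). Carboxylesterases (Ces) were lower at 7 of 11 and UDP-glucuronosyltransferases (Ugt) at 7 of 10, with 0 higher in either. Immunoglobulin variable segments were lower at 31 of 148 and higher at 0.

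By position, genes with a mean of at least 5 CPM over 0ND and 0P and 1 known position were grouped by chromosome. Those of chromosome 11 were higher in 0P more often than those of any other autosome or of X. Of the 995 there, 28.3% were higher and 12.8% lower, against 13.8% to 24.3% higher on the other chromosomes. Their median log2 fold change was 0.18, against a median of 0.05 for the same genes in 8P against 8ND. The medians of the other chromosomes lay between -0.10 and 0.07. Medians over 5 groups of about equal size of genes at that level, ordered by exonic GC content, ran from -0.11 to 0.10. The part of GC content in the chromosome 11 value was not tested.

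Among abundant transcripts, the nuclear long non-coding RNA Neat1 fell from 5390.4 ± 1194 to 3378 ± 742 CPM (log2 fold change -0.67 ± 0.20, edgeR adjusted p = 0.0145) with overlapping groups, and Pabpc1, the poly(A)-binding protein of the cytoplasm, rose from 721 ± 36.9 to 1703 ± 385 CPM (log2 fold change 1.24 ± 0.15, edgeR adjusted p = 9.38e-06) without overlap.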
